A study of Caenorhabditis elegans with 22 samples.

Results

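Messenger RNA of Caenorhabditis elegans that lacked both ADAR genes and the ERI-6/7 helicase was compared with that of wild type while both strains were fed nrde-3 double-stranded RNA. The comparison holds 2 of the 22 samples of the series, 1 library per genotype, so it has no replicates and every difference given here is a fold between 2 libraries, with no p-value. The mutant library came from strain GR1744, which carries the alleles gv6 of adr-1, mg379 of eri-6 and gv42 of adr-2 and is written here as adr-1 eri-6;adr-2, and the other came from strain N2. Per the labels, larvae arrested at L1 were placed on HT115 bacteria that make nrde-3 dsRNA and were kept at 20 °C for 71 h. Whole young adults with embryos, aged 70 h after the arrest, were taken, so each library mixes all tissues and the embryos inside. Both libraries therefore share the nrde-3 RNAi, and no animal on control food enters the comparison.

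ADARs bind double-stranded RNA, and ADR-2 turns adenosine into inosine within it, while ADR-1 helps ADR-2 to reach its targets. ERI-6/7 is a helicase made from the trans-spliced products of eri-6 and eri-7, and it acts with the Argonaute ERGO-1 to make primary siRNAs against a small set of mostly duplicated loci. Those siRNAs lead to secondary siRNAs, some of which are bound by NRDE-3, an Argonaute that moves from the cytoplasm to the nucleus of somatic cells and lowers transcription of its targets. In animals on nrde-3 RNAi this nuclear step was the one addressed by the food, and the comparison shows the mRNA of the mutant beside that of wild type under the same food.

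The mRNA table held 37425 entries in FPKM, fragments scaled to gene length and to the size of the library. Of these, 12132 loci had a unique gene ID, a locus of 200 bp or more and at least 1 FPKM in 1 of the libraries, and they are the loci compared. A locus was counted as higher or lower when FPKM plus 1 differed at least 4-fold between the libraries. The depth of the mRNA libraries is unknown. Among 588 loci under 0.15 FPKM in both libraries, the commonest ratio of mutant to wild type lay between 1.23 and 1.32, so the smallest listed steps were larger in the mutant library. The median log2 fold over all 12132 loci was 0.06.

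The targeted genes were still present as transcripts in the mutant library. The ADAR gene adr-1 (WBGene00000079) had 15.9 FPKM in the mutant and 32.1 in wild type. The helicase gene eri-6 (WBGene00016561) had 8.63 and 17.2 FPKM, and eri-7 (WBGene00016566) had 13.2 and 42.9 FPKM. All 3 were lower in the mutant, with log2 folds of −0.97, −0.92 and −1.63, and none reached the 4-fold line. The food's target nrde-3 (WBGene00019862, X:372235-376973 in WBcel235) had 8.08 FPKM in the mutant and 5.26 in wild type, a log2 fold of 0.54. The antiviral helicase gene drh-1 had 14.9 and 16.3 FPKM. These alleles need not remove the transcript, so the levels neither check the mutations nor measure how far nrde-3 RNAi worked, and adr-2 was not analysed here.

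In all, 292 loci were at least 4-fold higher in adr-1 eri-6;adr-2, which is 2.41% of those compared, and 143 were at least 4-fold lower, which is 1.18%. Many of these were small noncoding RNA genes that lie inside longer loci. A RefSeq entry was found for 12080 loci, and the gene's own span was under 200 bp for 325 of them. Those 325 gave 92 of the higher loci and 91 of the lower ones, and in 85 and 87 of these the other library was listed at 0. Loci whose own gene spans 200 bp or more, a split made after the values were seen, numbered 11755. Of them 199 were higher (1.69%) and 50 were lower (0.425%), and 10465 of the 11755 lay within 2-fold. Of the 199 higher loci 169 were protein-coding and 6 were pseudogenes, and of the 50 lower loci 44 were protein-coding and 1 was a pseudogene. Levels of 0 in the other library were less common here, with 40 of the higher and 16 of the lower loci. Of the 199 and 50 loci, 44 and 9 lie in a locus with another compared gene, so their reads may be shared. Counts of gene lists below run over all 12132 loci, and those of small RNA, of the other food and of chromosomes over the 11755.

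**Figure D1:**
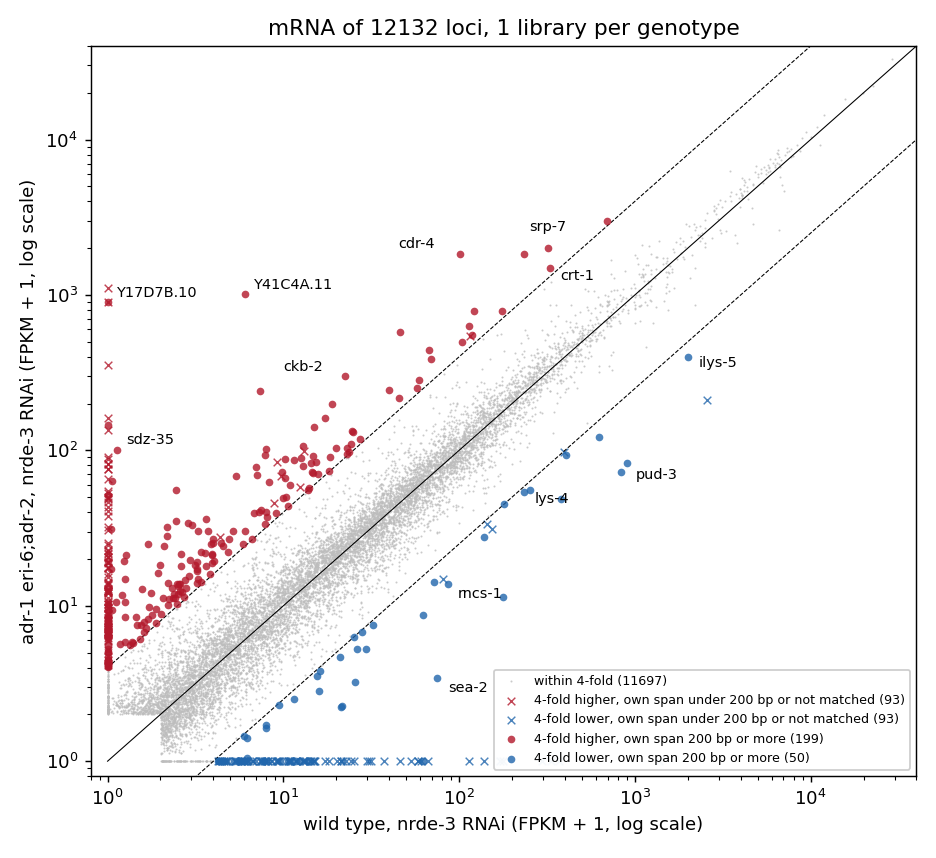
FPKM plus 1 of 12132 loci in wild type (horizontal axis, log scale) and adr-1 eri-6;adr-2 (vertical axis, log scale) on nrde-3 RNAi, with 1 library per axis; dashed lines mark 4-fold, red and blue mark loci higher and lower in the mutant, and crosses mark genes with an own span under 200 bp or no RefSeq match. The crosses line up at 0 FPKM along both axes, while loci such as Y41C4A.11, cdr-4 and pud-3 lie away from the axes.

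Among loci with an own span of 200 bp or more, the largest folds were higher levels in the mutant, most of them at genes known here only by sequence name. Over all 12132 loci the largest belonged to short noncoding genes listed at 0 in 1 library, F13G11.144 with 0 FPKM in the mutant and 1362 in wild type and Y53H1C.8 with 1109 and 0. Y41C4A.11 (WBGene00012757, III:11719900-11723602) had 1014 FPKM in the mutant and 5.08 in wild type, a log2 fold of 7.38. The gene sdz-35 (WBGene00022570, II:3207683-3208751), first found as dependent on the embryonic factor SKN-1, had 100.1 and 0.128 FPKM, a log2 fold of 6.49. F22E5.6 had 62.1 and 0.0658 FPKM, with a log2 fold of 5.89. In these 3 genes wild type was at or under 5.08 FPKM and the mutant was above 60 FPKM. The noncoding RNA W02D7.9 had 239 FPKM against 6.35. The genes C38D9.2 (WBGene00008010, V:17567513-17571603) and F15D4.5 (WBGene00008862, II:13245430-13247774) had 30.1 against 0.0396 and 54.7 against 1.44 FPKM. Their neighbours C38D9.13 and F15D4.6 were higher as well, at 4.63 FPKM against 0 and 18.0 against 2.22. F37C4.8 and Y17D7B.10 had 145 and 896 FPKM in the mutant and were listed at 0 in wild type, so no fold is given. In the other data F37C4.8 was near wild type, with log2 folds of −0.05 on drh-1 RNAi and 0.28 in total RNA. Y17D7B.10 went the other way on drh-1 RNAi, with 0 FPKM in the mutant and 618 in wild type.

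Among the most abundant of the higher loci were genes with known enzymes or structural proteins. The cadmium-responsive gene cdr-4 (WBGene00010470, V:12407364-12408592) had 1843 FPKM in the mutant and 99.8 in wild type, a log2 fold of 4.19. The serpin gene srp-7, which encodes a protease inhibitor, had 2014 and 318 FPKM, a log2 fold of 2.66. Wild type already had a clear signal at both genes. Y54G2A.18 had 1822 against 232 FPKM, and gale-1, which encodes UDP-galactose 4-epimerase, had 631 against 112. The gene bre-1, which encodes a GDP-mannose dehydratase needed for fucosylated glycans, had 243 against 39.2 FPKM. Both enzymes make sugar nucleotides, and they were picked out after their values were seen. The beta-tubulin gene tbb-6 had 91.8 FPKM against 6.84 and the alpha-tubulin gene tba-7 had 54.7 against 12.82. The receptor for autophagy cargo sqst-1 had 131.5 FPKM against 23.5, and dsc-4, the large subunit of the lipid transfer protein that loads lipoproteins, had 89.9 against 17.5. The ribosomal RNA gene rrn-3.1, a template of 26S rRNA, had 2971 FPKM against 693, and the protein-coding genes F31C3.3 and F33H2.3 near it were also higher, at 72.1 against 17.1 and 281 against 58.2.

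ERGO-1 class loci, listed here as targets whose siRNAs need ERI-6/7, were mostly higher in the mutant. Of 20 listed loci 18 could be compared, 4 were at least 4-fold higher, 0 were lower, and 17 had a fold above 1, where 2.41% of all loci were higher and 1.18% lower. Their median log2 fold was 0.92, beside 0.06 over all loci. The duplicated neighbours F55C9.5 (WBGene00010102, V:19290574-19291431) and F55C9.3 (WBGene00010100, V:19287009-19288159) had 27.2 FPKM against 1.18 and 23.4 against 1.11. C18D4.6 had 17.2 against 2.14 FPKM, and the entry C40A11.10, which RefSeq annotates as a miRNA gene, had 29.2 against 5.02. Those were the 4 that reached the 4-fold line. By the small RNA rule used below, C18D4.6 was not among the loci with less small RNA in eri-6. The others were closer to wild type. E01G4.7 had 56.0 against 17.2 FPKM, C36A4.11 had 6.24 against 1.46, and the pseudogene W04B5.1 had 65.2 against 27.9. At the low end Y37E11B.2 had 8.07 against 8.02 FPKM and Y43F8B.9 had 5.30 against 7.76, so the list held loci at wild-type level too. Reads of near-identical copies such as F55C9.3 and F55C9.5 may have been divided between them.

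**Figure D2:**
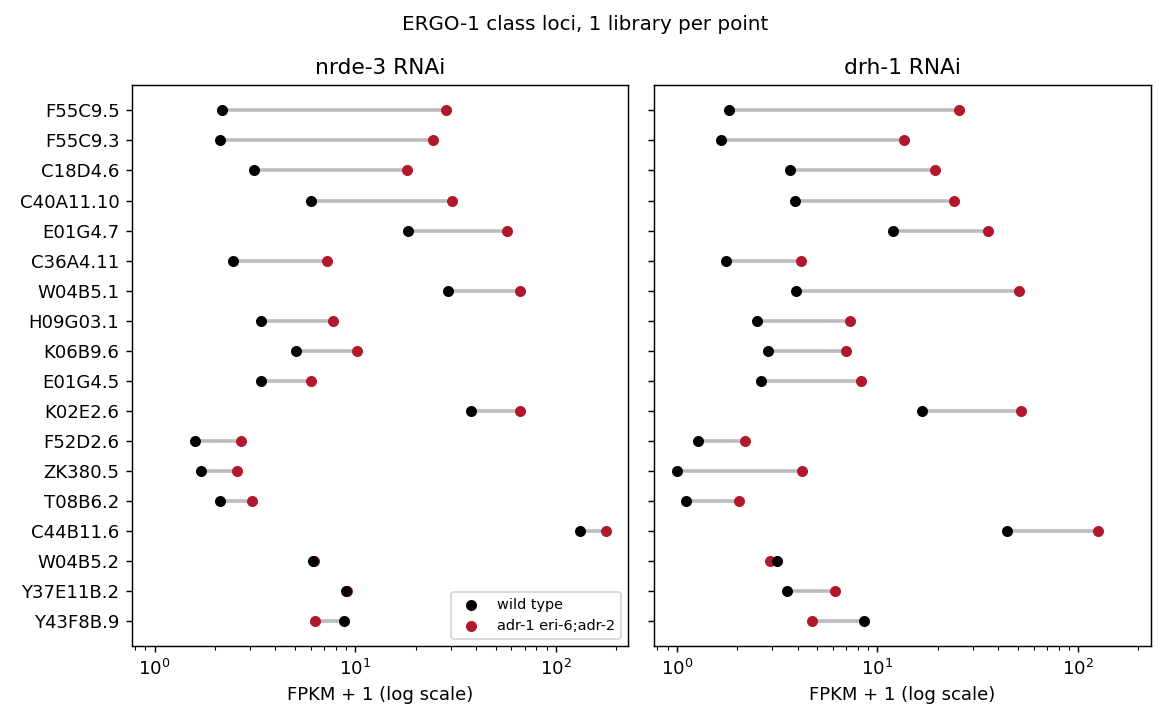
FPKM plus 1 (log scale) of the 18 compared ERGO-1 class loci in wild type (black) and adr-1 eri-6;adr-2 (red) on nrde-3 RNAi and on drh-1 RNAi, 1 library per point, sorted by the fold on nrde-3 RNAi. The red points lie to the right for 17 of 18 loci on nrde-3 RNAi and for 16 of 18 on drh-1 RNAi, and W04B5.1 and C44B11.6 lie further apart on drh-1 RNAi.

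Small RNA libraries of other animals, grown on OP50 bacteria, give a second readout of the same loci, with 2 libraries per genotype. The eri-6 libraries came from strain GR1814, genotype eri-6(mg379), and the adr-1;adr-2 libraries from strain BB4, labelled adr-1(gv6); adr-2(gv42), and strain BB21, labelled adr-1(tm668); adr-2(ok735). Of the 11755 loci 11754 were in the deposited small RNA tables, and at 82 of them (0.698%) both eri-6 libraries lay at least 4-fold below both wild-type libraries. On nrde-3 RNAi 13 of these 82 loci, or 15.9%, were at least 4-fold higher in mRNA of the triple mutant, 0 were lower, and 68 lay above 0. Over all 11755 loci 1.69% were higher and 54.98% lay above 0. The median log2 fold of the 82 was 0.79 in mRNA. At 8 loci both eri-6 libraries lay at least 4-fold above both wild-type libraries. Of those 8 loci 1 was at least 4-fold higher in mRNA, 0 were lower and 7 lay above 0, with a median of 0.59. Higher mRNA was thus not limited to loci with less small RNA in eri-6. At F55C9.5 the normalised small RNA reads were 4.20 and 6.93 in eri-6 and 763 and 698 in wild type. At linc-17, an intergenic noncoding RNA, they were 4.20 and 17.3 against 912 and 1420, and its mRNA level was 35.4 FPKM in the mutant and 2.65 in wild type. At jmjc-1, which encodes a protein with a JmjC domain, the reads were 493 and 839 against 3512 and 8327, and its level was 20.6 FPKM against 2.92. The other loci of the 13 were F55C9.3, Y17D7B.10, linc-12, linc-21, C40A11.10, Y36E3A.2, Y43F8B.6, T05E12.10, F19G12.10 and 1 more protein-coding gene on IV. The wild-type small RNA libraries came from N2 and from GR1831, which carries the transgene mgIs30, so their spread includes that difference.

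Small RNA was lost at fewer loci in adr-1;adr-2 than in eri-6. Both adr-1;adr-2 libraries were at least 4-fold below both wild-type libraries at 11 loci (0.0936%), and 3 of the 11 were higher in mRNA on nrde-3 RNAi. These were F15D4.5, C38D9.2 and Y38F2AL.12. F15D4.5 had 1843 and 1766 normalised reads in adr-1;adr-2 against 14161 and 41311 in wild type, and C38D9.2 had 1023 and 884 against 4365 and 6685. In eri-6 the same loci kept 14366 and 28522 reads and 3029 and 4969 reads, which is within the range of the wild-type libraries or close to it. At 80 loci (0.681%) adr-1;adr-2 had at least 4-fold more small RNA than wild type. Of these 1 was higher in mRNA, PDB1.1 with 108 FPKM against 23.1, and 0 were lower, and the median log2 fold was −0.18.

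**Figure D3:**
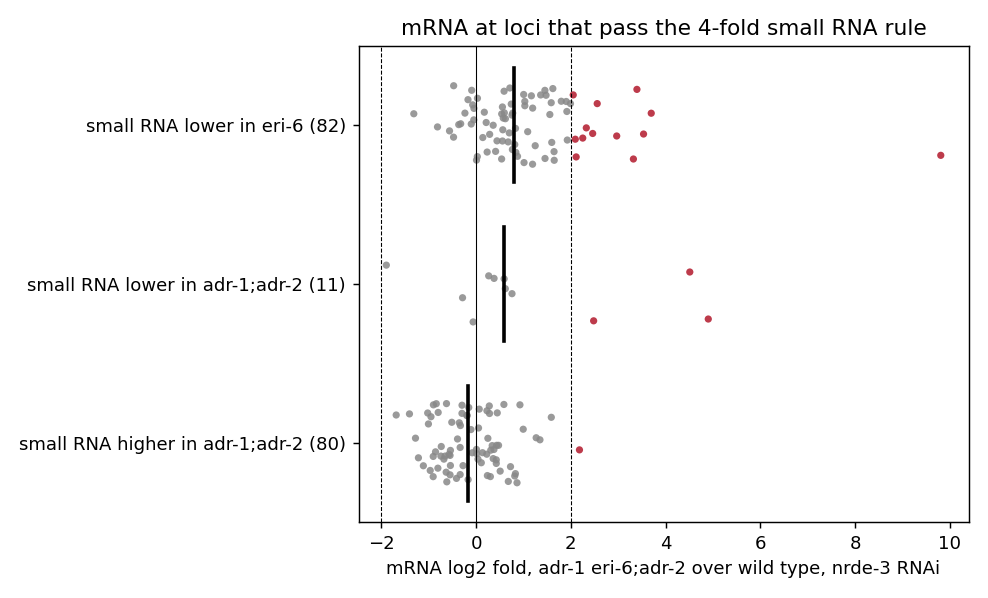
mRNA log2 fold of adr-1 eri-6;adr-2 over wild type on nrde-3 RNAi (points, red where 4-fold higher), with the median of each set as a bar. The sets are the 82 loci with less small RNA in eri-6, the 11 with less in adr-1;adr-2 and the 80 with more in adr-1;adr-2. The medians are 0.79, 0.59 and −0.18, and the 13 red points of the first row include Y17D7B.10 at the far right.

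Long intergenic noncoding loci included 7 of 53 compared that were at least 4-fold higher and 0 that were lower, beside 2.41% and 1.18% of all loci, with a median log2 fold of 0.36. Without the FPKM filter that median was 0.00 over 135 loci. The highest level belonged to linc-12 (WBGene00219687), with 199 FPKM in the mutant and 18.0 in wild type. The neighbours linc-21 and linc-26 had 118 against 26.4 FPKM and 11.8 against 0. The others past 4-fold were linc-16, linc-17, linc-33 and linc-64. The locus listed for linc-12 is shared with 4 other compared genes, so its reads may belong in part to them.

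Most genes in a list of the endoplasmic reticulum unfolded protein response, called the folding list below, had a fold above 1. Besides folding proteins it holds regulators of the response and the choline kinase gene ckb-2, which had its largest log2 fold, 3.74. Of the 19 members of the list, 5 were at least 4-fold higher, beside 2.41% of all loci, 0 were lower and 18 had a fold above 1, and the median log2 fold was 0.98. The summed level of the list was 7124 FPKM in the mutant and 2208 in wild type. Calreticulin, the calcium-binding lectin chaperone encoded by crt-1 (WBGene00000802), had 1497 FPKM against 326. The disulfide isomerase genes pdi-6 (WBGene00015168) and pdi-2 had 782 against 120 and 783 against 175 FPKM. The BiP chaperone gene hsp-3 had 549 against 117 FPKM and the choline kinase gene ckb-2, whose locus also holds B0285.12, had 298 against 21.3. Other chaperones lay under the line, with pdi-3 at 1215 FPKM against 331 and enpl-1, the GRP94 gene, at 551 against 163. The sensors and regulators of the response differed less. The splice-activated factor gene xbp-1 had 172 FPKM against 136, pek-1 had 12.5 against 8.87, atf-6 had 3.65 against 2.63 and ire-1 had 32.2 against 42.95. The cytosolic heat shock list had 0 of 12 past 4-fold in either direction and a median of 0.04, and the list of mitochondrial unfolded protein response genes had 0 of 9 and a median of 0.10.

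Major sperm protein genes, which encode the cytoskeletal protein of crawling sperm, had a fold above 1 in every one of the 24 compared, and 7 were at least 4-fold higher, beside 2.41% of all loci. Their levels were low, and the summed level was 131.8 FPKM in the mutant and 19.05 in wild type. Of 35 entries 24 passed the filters, and a gene under 1 FPKM in wild type could pass only through the mutant library. The count with a fold above 1 is therefore partly set by the filter. Without the FPKM filter the median log2 fold was 1.54 over 34 genes, beside 1.77 with it. The gene msp-76 had 12.95 FPKM against 1.22 and msp-64 had 8.76 against 0.710. The copies of this family are nearly identical, so reads could not be assigned to 1 gene with confidence. Of 23 other sperm genes 2 were at least 4-fold higher, ssp-34 and nspd-3, 0 were lower, and the median log2 fold was 1.07. Without the FPKM filter that median was 0.33 over 38 genes. In whole animals, more cells of a type and more RNA per cell cannot be told apart.

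Other tissue lists bear on how alike the animals were in makeup. Germline stem cell and P granule genes had 0 of 29 past 4-fold and a median log2 fold of −0.04, with summed levels of 3097 FPKM in the mutant and 3266 in wild type. Oocyte and early embryo genes had 0 of 30 past 4-fold and a median of 0.20, with 8693 and 8717 FPKM. Zygotic embryo genes had 0 of 14 higher and 1 lower, sdz-24, with 5.27 against 24.1 FPKM, and a median of 0.05. Vitellogenin genes, the yolk protein genes of the intestine, had 0 of 6 past 4-fold and summed levels of 9332 and 9317 FPKM. Intestine markers had 0 of 15 higher and 1 lower, lys-4, with 9 above 0 and a median of 0.14. Muscle markers had a median of 0.64, with 19 of 23 above 0 and summed levels of 9612 and 5874 FPKM. Neuron markers had a median of −0.35 and hypodermis markers a median of 0.12, and 0 members of either list were past 4-fold. Ribosomal protein genes had 62 of 68 above 0 and a median of 0.21, with no member past 4-fold. Whether a difference in makeup moved with any gene group was not tested.

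Cuticle and defence genes lay on both sides. Of 87 collagen genes, 8 were at least 4-fold higher and 3 were lower, beside 2.41% and 1.18% of all loci, with a median of 0.58. Without the FPKM filter that median was 0.14 over 169 genes. The gene col-129 had 141 FPKM against 13.9, col-139 had 86.3 against 9.22 and col-81 had 77.6 against 5.96. On the low side col-10 had 6.48 FPKM against 31.3 and col-107 had 4.29 against 28.4. The list of lysozyme and antimicrobial peptide genes held 8 higher and 6 lower of 87. Higher members included the neuropeptide-like peptide gene nlp-34, with 88.2 FPKM against 11.7, the caenacin gene cnc-4, with 26.1 against 3.93, and the infection response gene irg-1, with 13.02 against 2.24. Of 69 C-type lectin genes 1 was higher, clec-67 with 71.4 FPKM against 8.86, 1 was lower, clec-218 with 3.69 against 20.0, and the median was −0.13. In the list of genes of the intracellular pathogen response, 1 of 11 was past 4-fold, skr-5, with 17.1 FPKM against 1.604, and the median was 0.93. A gene under 1 FPKM in wild type could pass the filter only through the mutant library. Without the FPKM filter the median was 0.11 over 29 genes. The relatives skr-3 and skr-4, which like skr-5 encode Skp1-related parts of ubiquitin ligases, had 310 against 81.2 and 84.8 against 27.2 FPKM. The cullin gene cul-6 of the same response had 3.81 against 4.94 FPKM. Among the fbxa F-box genes, substrate adaptors of such ligases, 3 of 128 were higher, fbxa-163, fbxa-158 and fbxa-30, and 0 were lower, a share close to the 2.41% of all loci.

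**Figure D4:**
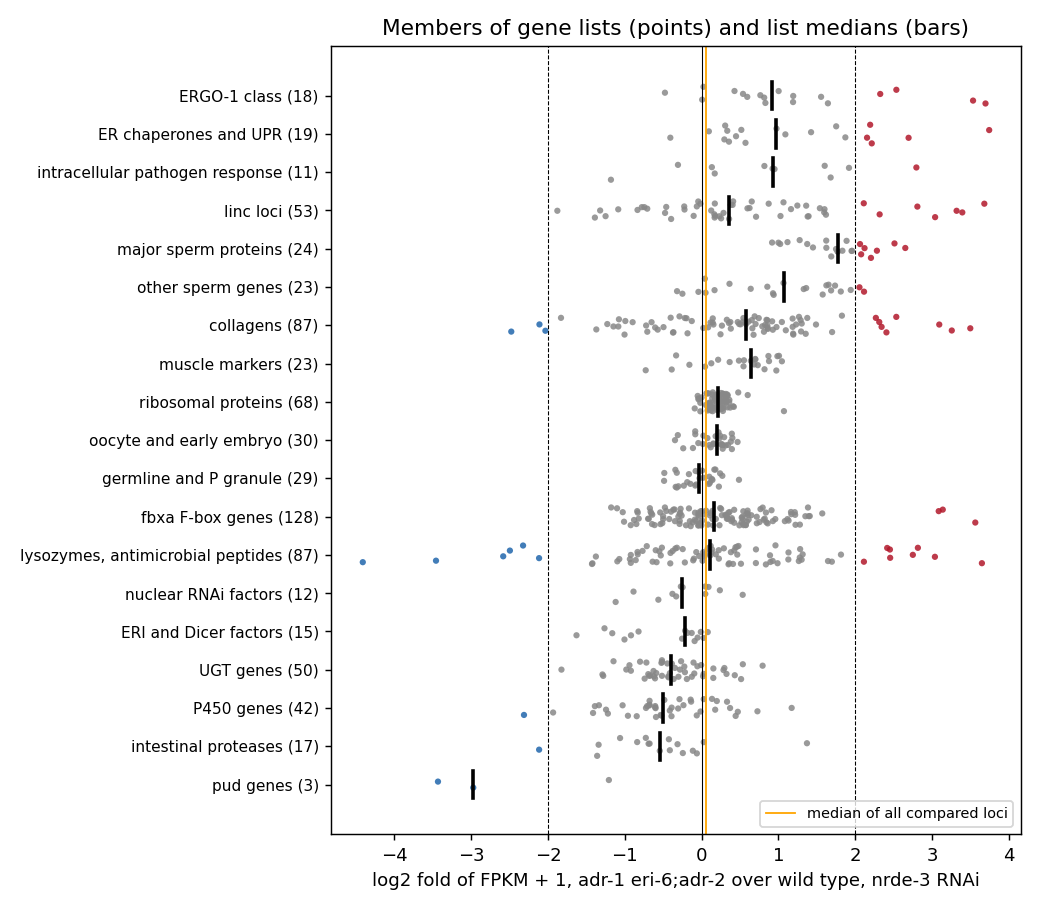
log2 fold of FPKM plus 1 on nrde-3 RNAi for members of 19 gene lists (points, red and blue past 4-fold), with list medians (black bars), the number compared in parentheses and the median of all loci in orange. Medians run from −2.97 for the pud genes to 1.77 for the major sperm protein genes, and the collagens and the lysozyme and antimicrobial peptide genes have 4-fold points on both sides.

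Most RNA interference factors lay within 4-fold. Among ERI and Dicer factors 0 of 15 were past 4-fold, 2 lay above 0 and the median log2 fold was −0.21. The primary Argonaute gene rde-1 had 22.4 FPKM in the mutant and 55.1 in wild type, and dcr-1, the Dicer gene, had 7.86 and 18.8. The drh-3 gene had 21.8 and 44.75 FPKM and rrf-3, the RNA-dependent RNA polymerase of this pathway, 11.7 and 21.4. The Argonaute gene ergo-1 itself had 25.6 and 25.15 FPKM. Nuclear RNAi factors had 0 of 12 past 4-fold and a median of −0.26, with nrde-2 at 24.3 against 53.9 FPKM and the germline Argonaute gene hrde-1 at 126.8 against 122.5. Mutator and amplification factors had 1 of 19 higher, sid-2, and a median of −0.00, and other Argonautes had 1 of 12 higher, alg-1, and a median of 0.25. The gene sid-2, whose product takes up dsRNA from the gut lumen, was at 78.4 FPKM against 11.9, a log2 fold of 2.63. The microRNA Argonaute gene alg-1 had 67.7 FPKM against 4.37 here and 11.5 against 5.89 on drh-1 RNAi.

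Fewer loci were lower in the mutant, and the pud, lysozyme and aspartyl protease genes and a noncoding RNA were among those at high level in wild type. The adjacent genes pud-3 (WBGene00017501) and pud-4 (WBGene00017498), found as proteins more abundant when insulin signalling is reduced, had 82.3 FPKM against 897 and 47.7 against 380.8. They lie in 1 listed locus, V:2324510-2327262. The third compared gene of that family, pud-2.2, had 0.400 against 2.23 FPKM. The noncoding RNA rncs-1 (WBGene00023069, X:1011501-1012347), whose long hairpin binds Dicer without being an efficient substrate, had 12.9 FPKM against 85.9, and its log2 fold was −2.65. The invertebrate lysozyme gene ilys-5 (WBGene00017691) had 400 FPKM against 2006, and the lysozyme gene lys-4 had 53.2 against 234. The aspartyl protease gene asp-13 had 92.5 against 404 FPKM.

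Intestinal protease, cytochrome P450 and UDP-glucuronosyltransferase genes had list medians below 0, while few members passed the line. Of 17 intestinal protease genes 1 was at least 4-fold lower, 2 lay above 0, and the median log2 fold was −0.54. The summed level was 5850 FPKM in the mutant and 9873 in wild type, and asp-1 had 855 against 2195 FPKM. Cytochrome P450 genes had 1 of 42 lower, cyp-25A1, with 4.31 against 25.3 FPKM, and a median of −0.50. UDP-glucuronosyltransferase genes, which attach sugars to small molecules, had 0 of 50 past 4-fold and a median of −0.40. Glutathione S-transferase genes, another detoxifying family, had 0 of 38 past 4-fold, 22 above 0 and a median of 0.06. Other lower loci were sea-2, a zinc finger gene of sex determination, with 2.44 FPKM against 74.1, F01E11.18 with 10.3 against 177, C18H9.3 with 71.3 against 838, and laf-1, a DEAD-box helicase gene of P granules, with 44.1 against 180.

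The same genotypes on drh-1 RNAi, 1 library each, share no library with the pair above and were scaled in a table of their own. On drh-1 RNAi 222 of the 11755 loci (1.89%) were at least 4-fold higher and 64 (0.544%) were lower. Of the 199 loci higher on nrde-3 RNAi 52.3% were also at least 4-fold higher there, the shared loci being 46.8% of the 222, and 179 had the same direction. Of the 50 lower loci 16 were also lower, which is 32% of the first list and 25% of the 64, and 35 had the same direction. Genes with an own span under 200 bp shared less, with 19 of 92 higher and 13 of 91 lower loci past 4-fold the same way on both foods, and 13 and 9 past 4-fold the opposite way. Over the 8400 loci of at least 5 FPKM in 1 nrde-3 RNAi library, the folds on both foods had a Spearman rho of 0.67 and a Pearson r of 0.67. This is a description across genes, which are not independent replicates.

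The ERGO-1 class, folding, major sperm protein, pud and intestinal protease lists lay on the same side of 0 on drh-1 RNAi. Sums of the ERGO-1 class were 377 FPKM in the mutant and 98.2 in wild type there, with 16 of 18 loci above 0. W04B5.1 had a log2 fold of 3.69 on drh-1 RNAi and 1.19 on nrde-3 RNAi, and F55C9.5 had 3.80 and 3.70. At the 82 loci with less small RNA in eri-6 the median mRNA log2 fold was 1.15 on drh-1 RNAi and 0.79 on nrde-3 RNAi, 23 and 13 were at least 4-fold higher, and 58 had the larger fold on drh-1 RNAi. The difference between foods was not tested, since each side of each pair is 1 library. Sums of the folding list were 7059 FPKM against 2852 on drh-1 RNAi, with 18 of 19 above 0 and 2 past 4-fold, pdi-6 and ckb-2. Sums of major sperm protein genes were 356 against 57.2 FPKM, with 24 of 24 above 0. The pud genes had 58.3 against 636 FPKM and intestinal proteases 6950 against 18038. Intestine markers did not keep their side, with 4 of 15 above 0 and a median of −0.59 on drh-1 RNAi. The vitellogenin genes differed between foods, with 0 of 6 above 0 on drh-1 RNAi and 2 of 6 on nrde-3 RNAi, and ribosomal protein genes had 19 of 68 above 0 there against 62 of 68 here.

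**Figure D5:**
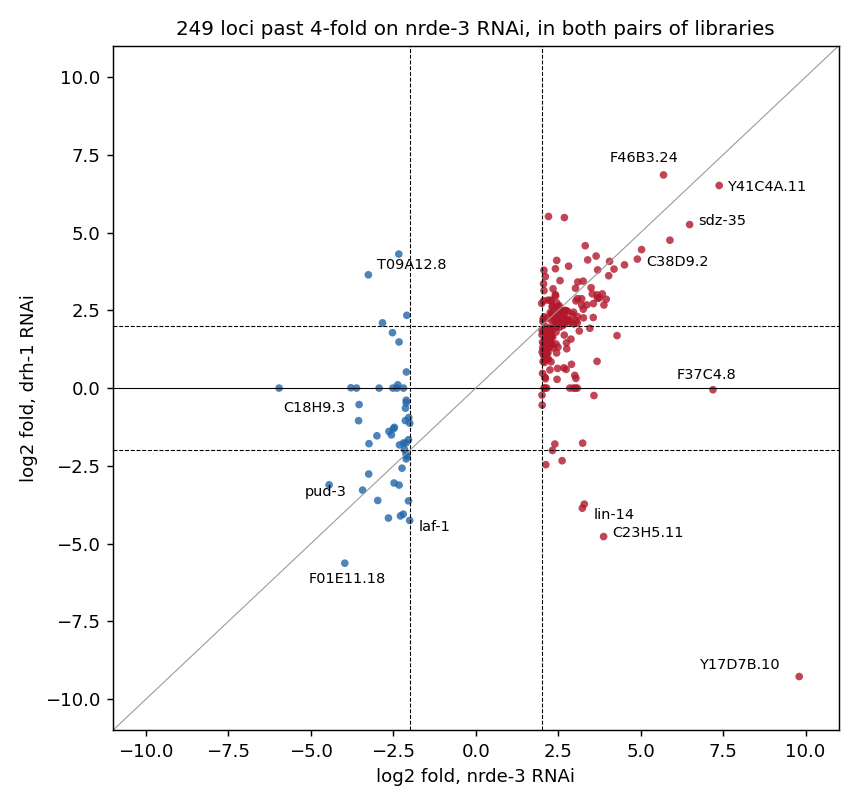
log2 fold of adr-1 eri-6;adr-2 over wild type on nrde-3 RNAi (horizontal axis) and on drh-1 RNAi (vertical axis) for the loci of own span 200 bp or more that passed 4-fold on nrde-3 RNAi, 199 higher in red and 50 lower in blue. Most red points lie above 0 on both axes, sdz-35 and Y41C4A.11 lie near the diagonal, and Y17D7B.10, lin-14 and C23H5.11 lie in the opposite corner.

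Total RNA, depleted of ribosomal RNA and given as 1 deposited FPKM per genotype with bounds over both replicates, came from animals of strains N2 and GR1744 on OP50. Of the 10531 loci also in that table, 2034 (19.3%) had bounds wholly above wild type in adr-1 eri-6;adr-2 and 1596 (15.2%) had bounds wholly below. Of the 190 higher loci with a value there, 72 were above, or 37.9%, and 9 were below. Of the 42 lower loci 12 were below, or 28.6%, and 2 were above. In total RNA the median log2 fold was 2.17 for oocyte and early embryo genes, 1.15 for germline genes, −1.68 for intestine markers and −3.24 for intestinal proteases. It was 1.48 for major sperm protein genes, −0.50 for muscle markers, −0.05 for neuron markers and 0.08 for zygotic embryo genes. For pud genes it was −0.06, with 0 of 3 wholly below, and pud-3 and pud-4 were at −0.67 and −0.06. For the folding list it was 0.63, with 6 of 18 wholly above and 0 wholly below. Within that list crt-1 and pdi-2 were at −0.11 and −0.08, pdi-6 at 0.87 and ckb-2 at 6.67. B0285.12, in the same locus as ckb-2, was listed at 16.54. Of the targeted genes eri-7 was at 2.11 and eri-6 at −1.48. Over 7311 loci the folds on nrde-3 RNAi and in total RNA had a Spearman rho of −0.05. Counts in total RNA are therefore given beside that background and were not separated from it.

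Some 36 of the 199 higher loci and 6 of the 50 lower loci passed 4-fold on nrde-3 RNAi, on drh-1 RNAi and in total RNA. The share of all loci past 4-fold in total RNA is not given here. These counts therefore stand without a background, and no excess is read from them. Ranked by the smallest of the 3 folds, sdz-35 led with log2 folds of 6.49, 5.26 and 4.93, followed by C38D9.2 with 4.90, 4.15 and 4.19 and Y41C4A.11 with 7.38, 6.51 and 3.98. F22E5.6 followed with 5.89, 4.75 and 3.49, and F15D4.5 with 4.51, 3.96 and 3.45. Further members were Y39G8B.2, C08E8.4, F11D11.3, the lipase-related gene lips-11, C55C3.3 and C18D4.6. On the low side rncs-1 led with −2.65, −4.18 and −3.85, and ilys-5 followed with −2.32, −3.12 and −4.85. The others were F08D12.2 and its neighbour F08D12.3, scl-5, which encodes a secreted SCP-like protein, and asp-13.

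The higher loci were not spread evenly over the chromosomes. On chromosome V 63 of 2351 compared loci were higher, or 2.68%, and on IV 50 of 1938, or 2.58%. On II the share was 1.68%, on X 1.04%, on III 1.03% and on I 0.802%. The V and IV shares thus exceeded the 1.69% over all 11755 loci. Some higher loci were close neighbours. F55C9.3 and F55C9.5, C38D9.2 and C38D9.13, and the tubulin gene tbb-6 and F55C5.2 lie within 20 kb of each other on V. On IV linc-26 and linc-21 as well as C55C3.7 and C55C3.3 lie that close. Such pairs were also found on the other chromosomes, for example F15D4.5 and F15D4.6 on II, pdi-2 and C07A12.2 on X, ins-21 and ins-23 on III, and F33H2.3 and F31C3.3 on I. Whether close pairs bear on the shares was not tested.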

How the data were processed

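For mRNA the authors deposited FPKM, with 1 number for each library. Per the labels' protocols polyadenylated RNA was selected and a strand-specific kit was used, and per the submitters' processing notes the tools include TopHat2, Cufflinks and Cuffdiff, and WBcel235 is the build named. Versions, settings and strand use were not given in the sources used here, so overlapping and antisense genes are uncertain. For total RNA the authors deposited FPKM once for each genotype, beside lower and upper bounds of unstated level. For small RNA the authors deposited a normalised read signal, with 2 libraries for each genotype.

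Of 37425 entries 344 with a repeated gene ID were left out. Folds used FPKM plus 1, a locus of at least 200 bp and at least 1 FPKM in 1 library, and a locus was called at 4-fold. With 1 library per side there is no test. RefSeq spans and biotypes came from a gene table of build WBcel235, which matched 12080 of 12132 loci. The named genes were the targeted genes, the 15 largest folds and 10 highest levels in each direction, the 3 highest and 3 lowest folds of each list, and up to 15 loci per direction past 4-fold in all 3 data sets. That rule was repeated over loci with an own span of 200 bp or more, and other genes named were chosen after their values were seen. The members and lists were chosen with earlier results of these data known. After values were seen, serpin genes were kept out of the chemoreceptor pattern, nhr-57, gpdh-1, trpl-5 and gpd-2 were taken off lists, and a list of retroelements was dropped. A small RNA locus counted as lower or higher when all mutant libraries lay 4-fold or further past all wild-type libraries on reads plus 1. Alternatives changed the added value, the filters, the scaling and the treatment of repeated IDs. Tables were handled in Python 3.11.15 with numpy 2.4.6 and pandas 2.3.3, and plots were drawn with matplotlib 3.10.9.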

Additional observations from a re-analysis of the deposited data

Results flagged for a closer look

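At 11 loci with an own span of 200 bp or more, the mutant was at least 4-fold from wild type on nrde-3 RNAi and at least 4-fold the opposite way on drh-1 RNAi. Each side of each pair is 1 library, and the difference between the foods was not tested. The log2 values given first are for nrde-3 RNAi and use FPKM plus 1. The heterochronic gene lin-14 was at 3.29, with 68.6 FPKM in the mutant and 6.10 in wild type, while on drh-1 RNAi it had 4.69 and 74.5 FPKM. K08D10.12 was at 3.23, with 160.2 against 16.15 FPKM here and 16.3 against 250.1 there. C23H5.11, in a locus with other compared genes, was at 3.88, with 30.9 against 1.17 FPKM and 1.00 against 53.8. Y54G2A.28 was at −2.33, with 13.2 against 70.5 FPKM and 123 against 5.26. C35A5.11 was at −2.83, with 7.74 against 61.0 FPKM and 24.7 against 5.01.

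The other loci had a level of 0 in a library of each pair, so their values rest on the added 1 FPKM. Y17D7B.10 was at 9.81, with 896 FPKM in the mutant here and 618 in wild type on drh-1 RNAi. EGAP5.1 was at 2.62, C45E1.5 at 2.33 and ZK546.19 at 2.12. On the low side Y73B3B.3 was at −2.09 and T09A12.8 at −3.26, with 8.55 FPKM in wild type here and 11.5 in the mutant there.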

How the results depend on the processing

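The counts of 292 higher and 143 lower loci depend on the value added to FPKM. With 0.1 FPKM added they were 577 and 312, and with 5 FPKM added 111 and 48. Alternatives chosen after seeing the data left 174 and 48 with protein-coding genes only, 166 and 39 without loci listed at 0 in either library, and 177 and 72 in loci that hold no other compared gene. Loci with an own span of 200 bp or more gave 50 lower. The filters on FPKM, the locus length, the scaling and repeated IDs kept both counts within 1.5 times. Dropping the FPKM filter could not change them, since a locus under 1 FPKM in both libraries cannot reach 4-fold on FPKM plus 1. The filters, the subsets and the treatment of repeated IDs only kept or dropped a named gene. Its fold could change only with the added value or the scaling. With 0.1 FPKM added, and also with scaling, all 91 named genes stayed on the same side of 4-fold. With 5 FPKM added 73 stayed and 18 fell short of it, among them laf-1 (−1.91), scl-5 (−1.25), F08D12.2 (−1.09) and C18D4.6 (1.64). Among list medians, that of neuron markers turned to 0.22 with at least 5 FPKM in 1 library and that of nuclear RNAi factors to 0.05 in loci that hold no other compared gene, and the cause was not tested. Other medians kept their sign or reached 0 but ranged widely: 0.11 to 1.76 for the intracellular pathogen response, 0.78 to 2.83 for major sperm protein genes, 0.33 to 2.12 for sperm genes, −3.2 to −1.03 for pud genes, 0.00 to 0.65 for linc loci, 0.14 to 0.64 for collagens, −0.63 to −0.14 for P450 genes, −0.68 to −0.24 for intestinal proteases and 0.65 to 1.19 for ERGO-1 class loci. For most of these lists the end of the range nearest 0 came without the FPKM filter. For the major sperm protein and ERGO-1 class lists it came with 5 FPKM added. No paired analysis was possible because each side holds 1 library. Without replicates or known depth, no error can be given.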
